A study of Mus musculus with 6 samples.

Results

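The cytosolic ribosomal protein genes encode the proteins of the ribosome that works in the cytoplasm, named Rps for the small subunit and Rpl for the large one. They were found by symbol in a microarray data set of mouse T cell leukemias: every probe set was taken whose only gene symbol is Rps or Rpl followed by the protein's number and letter, with Rpsa and the stalk proteins Rplp0 to Rplp2 included. Kinases of the Rps6k family, pseudogenes with a -ps symbol and mitochondrial ribosomal proteins were left out; Rps4l, which RefSeq lists as a transcribed pseudogene, matches the symbol rule and was kept. This gave 105 probe sets of 49 genes, 23 for the small and 26 for the large subunit, among 18194 genes with a probe set of their own symbol. The symbol rule uses no measured value, and each gene was represented by its probe set with the highest mean over all arrays. The genes lie on 17 chromosomes, with at most 7 on any, these being chromosomes 7 and 17.

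The data come from 6 one-colour arrays, 3 of leukemias wild type for Sh2b3 and 3 of Sh2b3-/- leukemias. The protein made from Sh2b3, also called LNK, is an adaptor that dampens signals of cytokine receptors in blood cells. Lineage-negative marrow progenitors came from mice 8 weeks old, C57BL6 or Sh2b3-/-, and were infected with the MigR1-ΔE-Notch1 retrovirus, so that both groups carry the same activated NOTCH1. Per the labels' protocols, 50000 infected Lin-Sca1+ cells went into each irradiated C57BL6 recipient, and 10 ng of RNA from the resulting tumours was amplified for each array. Sh2b3-/- is the donor marrow's genotype; the recipients keep their own Sh2b3 and other host cells. The sample titles call the arrays biological replicates. The labels also speak of triplicates but do not tie arrays to animals. The p-values therefore measure the spread between these samples, which may still be technical.

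The study's comparison is knockout against wild type, that is, which genes differ between the leukemias with and without Sh2b3. The brighter Sh2b3 probe set read 4.25, 4.83 and 4.08 in wild type replicates 1 to 3 and 2.29, 2.24 and 2.29 in knockout (log2 difference -2.11, moderated SE 0.249, limma adjusted p = 0.194 in the fit over all probe sets). The groups did not overlap. Wild type replicates 1 and 2 stood close together: in the 6725 genes averaging more than 5, the log2 difference between them had an SD of 0.234, and in the other 14 pairs of arrays 0.503 to 0.689. The count of ribosomal protein genes whose groups did not overlap is also given with both averaged. Other results are given so only where stated. T lineage markers had a mean log2 level of 8.90 to 9.46 in wild type and 8.65 to 9.29 in knockout, with 10 of 12 markers above 4, the exceptions being Cd4 and Cd7.

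A ribosome holds a single copy of nearly every one of its proteins beside the ribosomal RNAs, and their mRNAs are among the most abundant of growing cells. Transcription is driven by general promoter factors and raised by MYC, a main target of NOTCH1 in T cell leukemia. The mRNAs begin with a 5′ terminal oligopyrimidine tract, a run of C and T letters at the cap through which mTOR and the RNA-binding protein LARP1 control their translation. Translation is not seen on an expression array, which reads mRNA levels only. Some ribosomal protein genes have their own place in disease: RPL5, RPL10, RPL11 and RPL22 are mutated or deleted in human T cell leukemia, and an inherited defect in a copy of many others causes Diamond-Blackfan anaemia.

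RefSeq start regions (GRCm38.p6) were matched by gene identifier for 43 of the 49 genes. Of these, 8 are shown because the values below turn on these genes or because they show a run of C and T plainly. Each is a window of 50 bases on the gene's own strand, 30 before and 20 after the annotated start, with runs of 5 or more C or T in capitals. Rpl4 had the smallest spread over the arrays, Rpl35 and Rps10 are genes of the anaemia list, Rps18 has a TATA-like stretch before its tract, and Rpl22l1 is the close relative of Rpl22. Rplp0, Rps9 and Rpl12 were the tested genes whose groups did not overlap. The windows are chr9:64173357-64173406 (plus strand) for Rpl4, chr2:39005112-39005161 (minus) for Rpl35, chr17:27635225-27635274 (minus) for Rps10, chr17:33955646-33955695 (minus) for Rps18, chr3:28805478-28805527 (plus) for Rpl22l1, chr5:115559437-115559486 (plus) for Rplp0, chr7:3704011-3704060 (plus) for Rps9 and chr2:32961682-32961731 (plus) for Rpl12.
Rpl4: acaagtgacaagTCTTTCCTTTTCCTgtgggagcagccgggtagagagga
Rpl35: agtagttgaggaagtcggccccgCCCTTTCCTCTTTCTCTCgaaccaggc
Rps10: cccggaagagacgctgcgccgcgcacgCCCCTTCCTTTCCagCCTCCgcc
Rps18: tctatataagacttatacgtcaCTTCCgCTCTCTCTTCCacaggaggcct
Rpl22l1: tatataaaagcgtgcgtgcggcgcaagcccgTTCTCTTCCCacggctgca
Rplp0: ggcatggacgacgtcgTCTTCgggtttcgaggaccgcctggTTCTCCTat
Rps9: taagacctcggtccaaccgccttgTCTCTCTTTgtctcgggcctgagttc
Rpl12: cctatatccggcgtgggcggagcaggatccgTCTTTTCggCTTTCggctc

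The longest run has 18 letters in Rpl35, 14 in Rpl4, 13 in Rps10, 11 in Rps18, 10 in Rpl22l1, 9 in Rps9 and 7 in both Rplp0 and Rpl12. A run counts wherever it lies in the window, so it need not be a tract at the cap. That of Rpl4 lies wholly before the annotated start and that of Rplp0 wholly after it. A run of 8 or more C or T on the gene's strand lay in this window in 22 of the 43 genes (51.2%), against 22.9% of the 27025 genes in the table and 16 of 69 mitochondrial ribosomal protein genes (23.2%). The letters CCGGAAG, the core of sites bound by ETS family factors such as GABPA, occurred on either strand within 250 bases before and 50 after the start in 21 genes (48.8%), against 9.93% of all genes and 37.7% of mitochondrial ribosomal protein genes. Read on the other strand, this motif holds a short C and T stretch, so the searches overlap in part. TATAA within 50 bases before the start was found in 5 genes (11.6%), against 5.89% of all genes. These are matches of letters to annotated starts and had no test.

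The ribosomal protein mRNAs were among the brightest and steadiest signals on the arrays. Of the 49 genes, 35 had a mean log2 level above 12, all of them in the top percent of probe sets, and they made up 20.3% of the 172 genes of the data set above that level. Another 10 genes lay lower but passed the filter on low values (a mean above 2.04), and 4 did not pass it and had no test. Their SD over the 6 arrays, with both groups together, had a median of 0.09 over the 45 genes that passed, and 0.07 over the 35 bright ones. Over all 12565 genes tested the median SD was 0.27.

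Bright genes in general varied less. The median SD was 0.27 in the other genes with a mean of 5 to 12 and 0.15 in the 137 other genes above 12. In the 31 other genes above 12.96, the lowest quartile of the ribosomal protein genes' means, it was 0.12. The highest value on any array was between 14.68 and 14.76, so the brightest probe sets lie close to the top of the scale. The part of signal level in the small spread was not tested beyond these values.

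**Figure D1:**
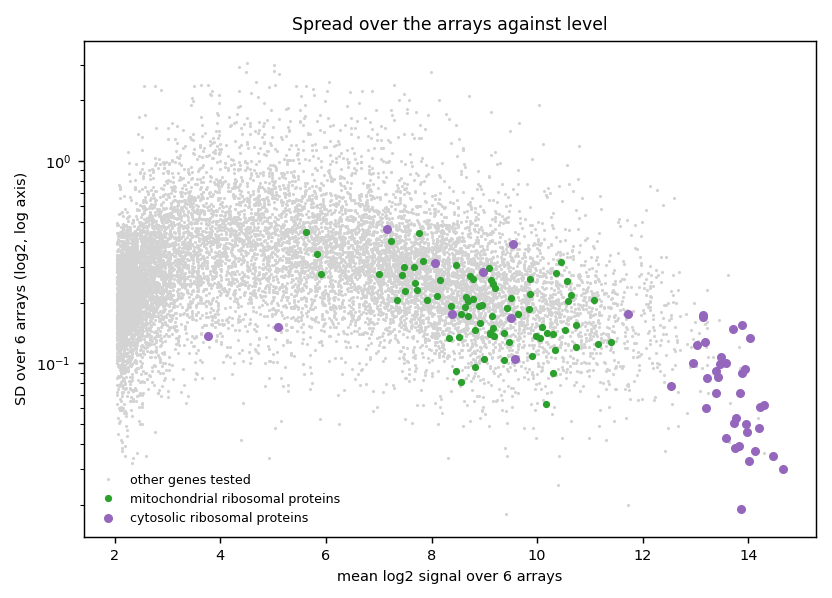
SD over the 6 arrays (log axis) against mean log2 signal for every gene tested, with cytosolic and mitochondrial ribosomal protein genes in colour. The spread narrows toward high signal, and most cytosolic genes sit at the bright end with a median SD of 0.09, against 0.19 for the mitochondrial ones.

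Rpl4, a large-subunit protein, had the smallest spread of the 45: it read 13.88, 13.86 and 13.85 in wild type and 13.83, 13.84 and 13.87 in knockout (SD 0.02). Rps3a1, a small-subunit protein, read 13.98, 14.01 and 14.07 against 13.98, 14.02 and 14.00. Rps29, also of the small subunit, read 14.70, 14.69 and 14.64 against 14.68, 14.64 and 14.63. On these probe sets the groups did not separate in any of the 3 genes, and their SD was at most 0.03. A second bright probe set of Rps29 did separate them. It read 14.16, 14.15 and 14.14 in wild type and 14.10, 14.08 and 14.07 in knockout (difference -0.07, limma adjusted p = 0.77 over all probe sets). Rpl7a (SD 0.04) read 13.81, 13.73 and 13.70 in wild type and 13.72, 13.74 and 13.75 in knockout. Rpl35, with the longest C and T run printed above, read 14.08, 14.13 and 14.18 against 14.16, 14.12 and 14.10. The brightest probe set of Rpl13a, a protein also known for silencing inflammatory mRNAs after it leaves the ribosome, read 14.51, 14.42 and 14.45 against 14.50, 14.46 and 14.44. Rpl35 and Rpl13a had an SD of 0.04, and their groups overlapped too.

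The wide spreads were at lower signal. Rpl37 read 9.11, 9.75 and 9.72 in wild type and 9.63, 9.06 and 10.05 in knockout (SD 0.39), the wild type range lying inside that of knockout. Rpl14 read 7.91, 7.84 and 8.21 against 7.88, 7.95 and 8.66, with knockout replicate 3 highest. Rps6, the protein phosphorylated by the S6 kinases downstream of mTOR, read 9.36, 9.39 and 9.78 against 9.45, 9.44 and 9.66. The difference of Rps6 was 0.01 (95% interval -0.35 to 0.37). Rps27 was read at 3.54 to 3.94 and Rpl39 at 4.85 to 5.22 over the 6 arrays, with overlapping groups. Rps16, Rpl3l, Rps4l and Rpl39l had means of 1.44, 1.80, 1.84 and 1.92, under the filter. Levels of different genes come from different probes, so a low value for Rps16 or Rps27 is not a statement about how much of that mRNA the cells held.

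**Figure D2:**
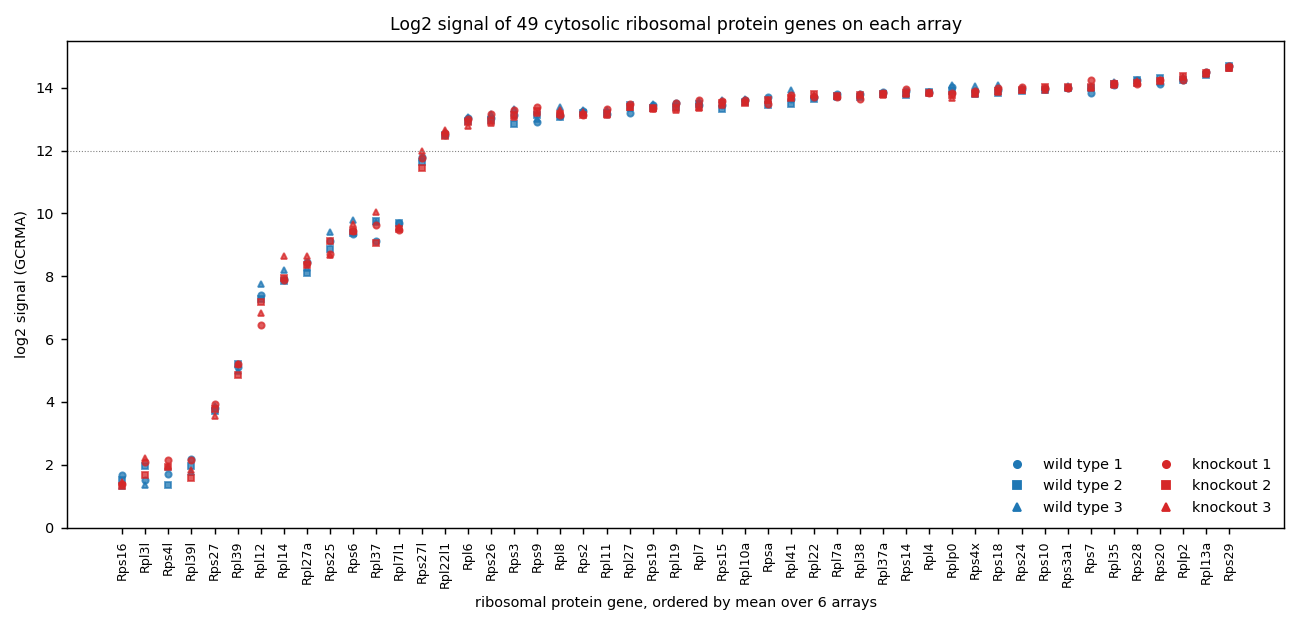
Log2 signal of the 49 genes on each array, ordered by mean, with blue for wild type, red for knockout and a marker shape for each replicate number; the dotted line is at 12. The 35 genes above the line have nearly coincident markers, and the separation of arrays widens among the genes below it.

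No ribosomal protein gene passed the test between knockout and wild type. With limma's moderated test and Benjamini-Hochberg adjustment over all genes tested, 0 of 45 were called at an adjusted p of 0.05, and their lowest adjusted p was 0.629. Over all genes the same rule called 0 of 12565 (0%), where the smallest adjusted p was 0.157. Without adjustment, 3 of 45 ribosomal protein genes had a p under 0.05, against 7.82% of all genes. Groups did not overlap in 3 of 45 (6.67%), against 13.8% of all genes: in 1 gene knockout lay above, where the share over all genes was 5.49%, and in 2 below, where it was 8.29%. That count was 6 of 45 (13.3%, against 20.6% of all genes) with wild type replicates 1 and 2 averaged. It was 8 of 45 without wild type replicate 2 (all genes 22.4%), 9 without wild type replicate 3 (28.3%), 10 without knockout replicate 1 (23.4%) and 7 without knockout replicate 3 (25.5%), fewer arrays being easier to separate.

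The differences were small in both directions. On the log2 scale the median over the 45 genes was -0.01, as over all genes, with 20 genes higher and 25 lower in knockout and a range of -0.67 to 0.27. The median absolute difference was 0.04, against 0.18 over all genes, and 36 of 45 genes (80.0%) differed by less than 0.1, against 28.8% of all genes. In the 137 other genes above 12 the median absolute difference was 0.10 and 48.2% were under 0.1. Centring each array on its median over the genes tested moved the median of all genes to 0.14, and that of the ribosomal protein genes to 0.14 as well, with 42 of 45 then higher. Centring moves every gene by the same amount, so the signs of such small differences depend on the scaling of the arrays. Without wild type replicate 2, 11 genes were higher and 34 lower.

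The intervals of the bright genes were narrow on the scale of the array signal. They do not bound the difference in mRNA where signal lies close to the top of that scale. All 95% intervals of the 35 genes above 12 lay between -0.43 and 0.48, and 29 of them lay within 0.3 on either side of 0. An interval held 0 in 33 of the 35. Among the 10 tested genes at lower signal the intervals were wider, reaching from -1.23 to 0.73.

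**Figure D3:**
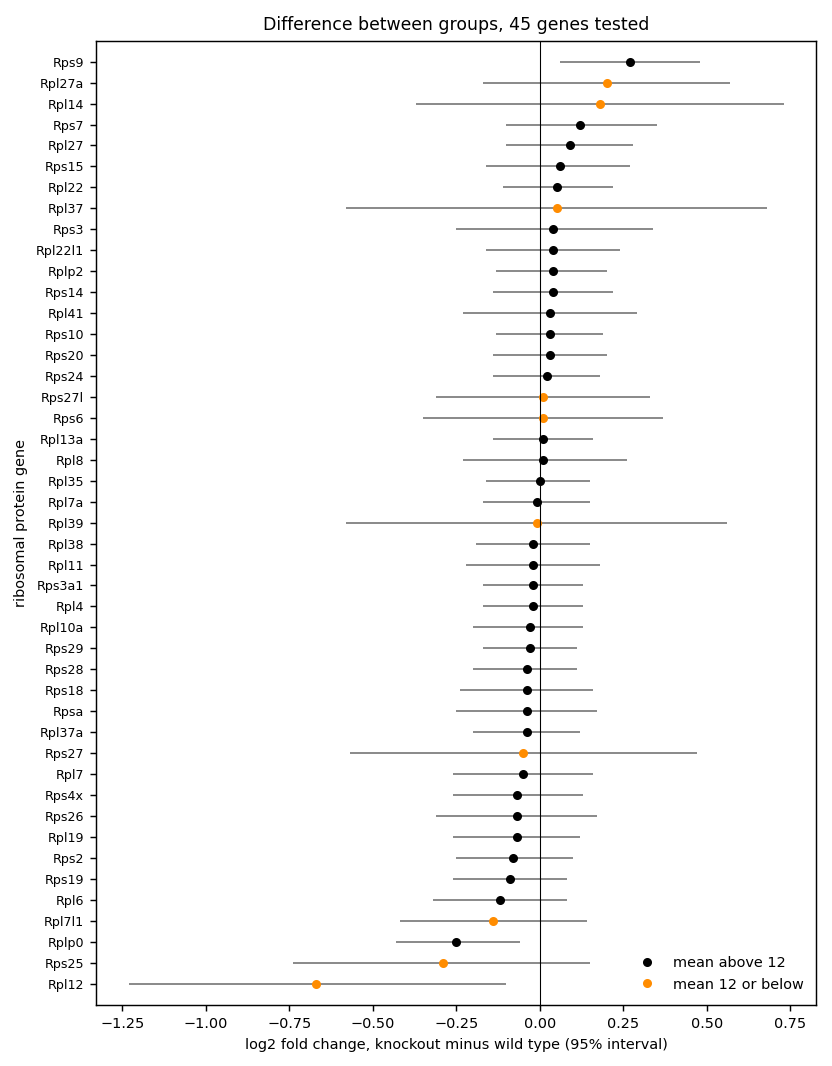
Log2 difference, knockout minus wild type, with its 95% interval from the fit over all genes, for the 45 genes tested; black points have a mean above 12 and orange points one of 12 or below. Most black points lie within 0.1 of the zero line, and the widest intervals belong to orange points, with Rpl12 at -0.67.

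The small-subunit genes split into 10 higher and 11 lower in knockout, with a median difference of -0.02, and 18 of 21 differed by less than 0.1. Rps9, a protein of the mRNA entry side of the small subunit, read 12.92, 13.12 and 13.01 in wild type and 13.40, 13.27 and 13.19 in knockout. All knockout values lay above all wild type values, by a mean of 0.27 (95% interval 0.06 to 0.48, moderated SE 0.0919, limma adjusted p = 0.634). A second bright probe set of Rps9 did not repeat this: it read 12.72, 12.66 and 13.09 against 12.96, 12.86 and 12.66, a difference of 0.00 with overlapping groups. With the mean of all Rps9 probe sets the difference was -0.12, of the opposite sign.

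Rps25, which helps some viral and cellular mRNAs start translation without a cap, read 9.13, 8.86 and 9.40 in wild type and 8.70, 9.13 and 8.68 in knockout (difference -0.29, 95% interval -0.74 to 0.15). Rps7 read 13.85, 14.00 and 14.07 against 14.26, 14.04 and 13.99 (difference 0.12, -0.10 to 0.35). A second bright probe set of Rps7 differed by 0.01. Rps19, the gene most often mutated in Diamond-Blackfan anaemia, read 13.46, 13.35 and 13.50 against 13.36, 13.36 and 13.32 (difference -0.09, -0.26 to 0.08). The groups overlapped in all 3 genes. Rps4x, the X-linked small-subunit gene, read 13.90, 13.81 and 14.05 against 13.91, 13.83 and 13.82 (difference -0.07). Rps2, a protein at the mRNA entry channel, read 13.25, 13.19 and 13.28 against 13.14, 13.13 and 13.22 (difference -0.08). Rps26, at the mRNA exit, read 13.03, 12.98 and 13.17 against 13.17, 12.94 and 12.87 (difference -0.07). These 3 differences turned positive, to 0.07 or 0.08, when arrays were centred on their medians. Rps15 read 13.45, 13.32 and 13.61 against 13.59, 13.52 and 13.44 (difference 0.06), and Rps14 read 13.90, 13.77 and 13.83 against 13.97, 13.84 and 13.81 (difference 0.04). Both had overlapping groups.

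The large-subunit genes split into 10 higher and 14 lower, with a median of -0.01, and 18 of 24 differed by less than 0.1. Rpl12, a protein at the base of the ribosomal stalk, had the largest difference of the 45 genes. It read 7.42, 7.29 and 7.77 in wild type and 6.46, 7.19 and 6.83 in knockout, so that all knockout values were lower, knockout replicate 2 coming close to wild type replicate 2. The mean difference was -0.67 (95% interval -1.23 to -0.10, moderated SE 0.245, limma adjusted p = 0.634). Rpl12 has 1 probe set here, well under the level of the bright genes.

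Other large-subunit genes had overlapping groups. Rpl6 read 13.04, 12.96 and 13.07 in wild type and 13.00, 12.92 and 12.79 in knockout (difference -0.12, 95% interval -0.32 to 0.08). Rpl27a read 8.44, 8.12 and 8.27 against 8.43, 8.37 and 8.64 (difference 0.20, -0.17 to 0.57). Rpl27 read 13.21, 13.44 and 13.35 against 13.47, 13.40 and 13.40 (difference 0.09, -0.10 to 0.28). In Rpl27 and Rpl27a the highest value was a knockout array, and in Rpl6 the lowest was. Rpl19 read 13.53, 13.40 and 13.47 against 13.51, 13.37 and 13.31 (difference -0.07), with knockout replicate 3 lowest.

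The ribosomal stalk, made of Rplp0 with the acidic proteins Rplp1 and Rplp2, recruits the elongation factors to the ribosome. Rplp0 read 14.03, 13.91 and 14.09 in wild type (mean 14.01 ± 0.09, SD, n = 3) and 13.84, 13.76 and 13.69 in knockout (13.76 ± 0.08). The groups did not overlap, the difference was -0.25 (95% interval -0.43 to -0.06, moderated SE 0.0805), and limma's adjusted p was 0.629. It was the smallest p of the 45 genes. Rplp2 read 14.26, 14.25 and 14.35 against 14.24, 14.38 and 14.35, a difference of 0.04 (-0.13 to 0.20). Rplp1 has no probe set of its own symbol alone and was not analysed here as a single gene.

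Of the genes hit in human T cell leukemia, Rpl11 and Rpl22 had probe sets of their own. Rpl22, which binds small RNAs and is needed for the development of αβ T cells, read 13.72, 13.66 and 13.73 in wild type and 13.70, 13.81 and 13.76 in knockout (difference 0.05, 95% interval -0.11 to 0.22). Rpl11, which with Rpl5 holds MDM2 in check when ribosome assembly fails, read 13.18, 13.20 and 13.31 against 13.34, 13.16 and 13.13 (difference -0.02, -0.22 to 0.18). Groups overlapped for both. Rpl22l1, the paralog that takes the place of Rpl22 in cells that lack it, read 12.49, 12.50 and 12.58 against 12.56, 12.46 and 12.67 (difference 0.04, -0.16 to 0.24). No probe set of either Rpl22 or Rpl22l1 with a mean above 12 separated the groups.

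The paralogs, near copies of ribosomal proteins that are often restricted to some tissues, were measured for 6 of the 8 listed, and 3 passed the filter. Rps27l, a p53 target related to Rps27, read 11.80, 11.63 and 11.76 in wild type and 11.77, 11.46 and 11.98 in knockout (difference 0.01). Rpl7l1, a relative of Rpl7 with a role in ribosome assembly, read 9.71, 9.70 and 9.53 against 9.46, 9.50 and 9.56 (difference -0.14, 95% interval -0.42 to 0.14), where wild type replicate 3 lay inside the knockout range. Rpl3l, known from heart and skeletal muscle, read 1.52, 1.95 and 1.35 against 2.09, 1.69 and 2.20. Rps4l read 1.71, 1.36 and 1.92 against 2.15, 1.94 and 1.95, without overlap. Rpl39l, known from the testis, read 2.19, 1.95 and 1.78 against 2.15, 1.59 and 1.84. These 3 lie in the range where the arrays carry little information.

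Ribosomal protein genes of Diamond-Blackfan anaemia had 10 of 17 listed genes measured, 0 of 10 called, 4 higher and 6 lower in knockout. Over all genes 0% were called. Their differences lay between -0.09 and 0.12 and their median SD was 0.06. On the probe set with the highest mean, the groups overlapped in all 10, where 13.8% of all genes did not. Other probe sets of Rps24 and Rps29 separated the groups. Besides Rps7, Rps19, Rps29, Rpl11, Rpl27 and Rpl35 described above, the measured genes include Rps10 (difference 0.03), Rps24 (0.02), Rps26 (-0.07) and Rps28 (-0.04).

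For 24 of the 49 genes there was more than 1 probe set, so that the comparison could be repeated on separate probes of a gene. Many of these share sequence with other transcripts by design: 40 of the 105 names end in x_at, the maker's mark for probes that may cross-hybridise, 34 end in at alone, 28 in a_at and 3 in s_at. Ribosomal protein genes have many processed pseudogenes, so signal from near copies cannot be told apart here. Tested over all 22537 probe sets of single genes that passed the filter, 0 of 96 ribosomal probe sets were called by limma (0% of all), 6 had an unadjusted p under 0.05 (7.74% of all), and 7 had groups that did not overlap (13.8% of all).

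Among the 67 probe sets above 12, covering 35 genes, differences lay between -0.25 and 0.28. In the 17 genes with several such probe sets, the spread between the lowest and highest difference had a median of 0.06. The largest spread was in Rpl13a. Its 2 brighter probe sets differed by 0.01 and -0.01 between the groups, while its 2 dimmer ones lay above in all knockout arrays. One of these read 12.40, 12.22 and 12.36 in wild type and 12.56, 12.47 and 12.68 in knockout (difference 0.24, limma adjusted p = 0.624). The other read 12.11, 12.09 and 12.06 against 12.38, 12.24 and 12.49 (difference 0.28, limma adjusted p = 0.597). The probe sets of Rpl13a therefore gave different pictures of the same gene, none past the threshold.

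The 19 probe sets between 5 and 12 spread further, from -2.13 to 0.20, with a median of -0.12, and 11 of 19 were lower in knockout. Rps24, a small-subunit protein whose mRNA is spliced in several forms, held the lowest value. Its dim probe set read 5.84, 5.92 and 6.73 in wild type and 3.85, 4.73 and 3.51 in knockout, with no overlap between the groups. The difference was -2.13 (95% interval -3.03 to -1.24, moderated SE 0.390), and limma's adjusted p over all probe sets was 0.406. In 9 alternative fits the difference stayed between -2.48 and -1.85 with adjusted p of 0.191 to 0.986. The 4 bright probe sets of Rps24 differed by 0.02 to 0.14, in the other direction and with overlapping groups. The brightest of them read 13.96, 13.90 and 13.98 in wild type and 14.04, 13.94 and 13.92 in knockout.

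In all, 6 genes had a probe set above 12 and one between 5 and 12: Rps24, Rps9, Rpl41, Rpl22, Rps3 and Rpl37a. Part of this group was named after its values were seen. The dim probe set of Rps9 read 6.41, 6.59 and 6.94 in wild type and 5.50, 6.41 and 6.11 in knockout (difference -0.64). Rpl41, the shortest protein of the ribosome, had dim probe sets at 7.38, 7.51 and 8.34 against 7.01, 7.46 and 7.46 (-0.43) and at 6.98, 7.15 and 7.92 against 6.01, 7.17 and 7.02 (-0.62), beside bright ones that both differed by 0.03. Rpl22 had a dim probe set at 5.85, 5.81 and 6.35 against 5.52, 6.06 and 5.47 (-0.32), and a second bright one at 12.83, 12.81 and 12.85 against 12.85, 12.88 and 12.84. Rpl37a had a dim probe set at 7.02, 7.12 and 7.56 against 7.13, 7.16 and 7.05 (-0.12), and that of Rps3 read 8.68, 8.64 and 8.68 against 8.61, 8.65 and 8.87 (0.04). Except in Rps24, groups overlapped in each of these dim sets. Over the 19 probe sets of this range, wild type replicate 3 was highest in 10 and lowest in 0, while knockout replicate 3 was highest in 8 and lowest in 3. Knockout replicates 1 and 2 were each lowest in 6 and highest in 0.

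**Figure D4:**
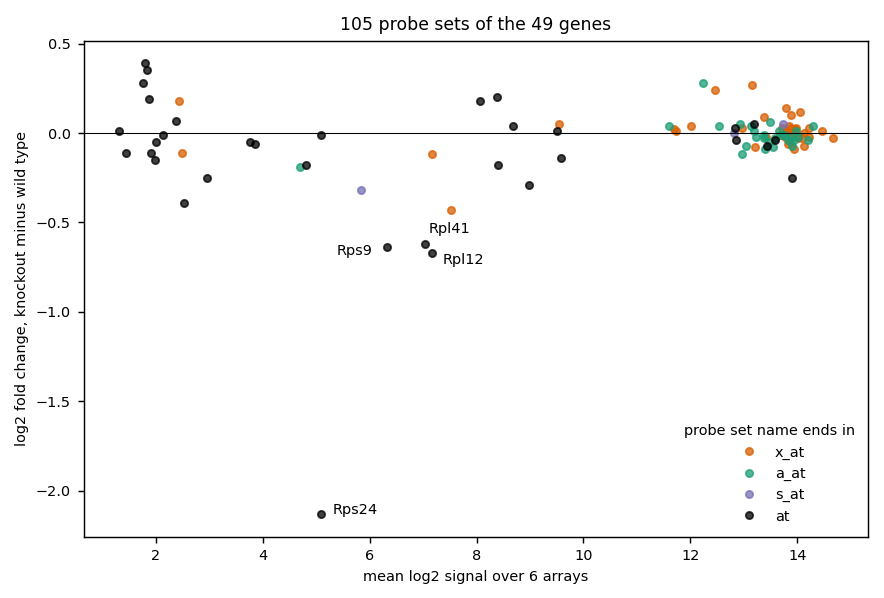
Log2 difference, knockout minus wild type, of all 105 probe sets against their mean log2 signal, coloured by the ending of the probe set's name. The cluster above 12 lies within -0.25 and 0.28, while the dim Rps24 probe set stands alone at -2.13, and the labelled points of Rpl12, Rps9 and Rpl41 lie at -0.67, -0.64 and -0.62.

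The bright genes also moved little from array to array. The median deviation of the 35 genes from their own means was 0.00, -0.03 and 0.04 in wild type and 0.03, -0.02 and -0.03 in knockout. Wild type replicate 3 was the highest array in 14 of the 35 genes and wild type replicate 2 the lowest in 12. Knockout replicate 1 was highest in 8 and lowest in 5, and knockout replicate 3 was lowest in 9, so both groups held extremes. The closeness of wild type replicates 1 and 2 over the whole array was not seen in these genes: the SD of their difference was 0.11 over the 35 genes, inside the range of 0.0659 to 0.147 of the other 14 pairs. The closest pair here was knockout replicates 2 and 3. Among the 10 tested genes at lower signal, knockout replicate 3 was highest in 5.

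**Figure D5:**
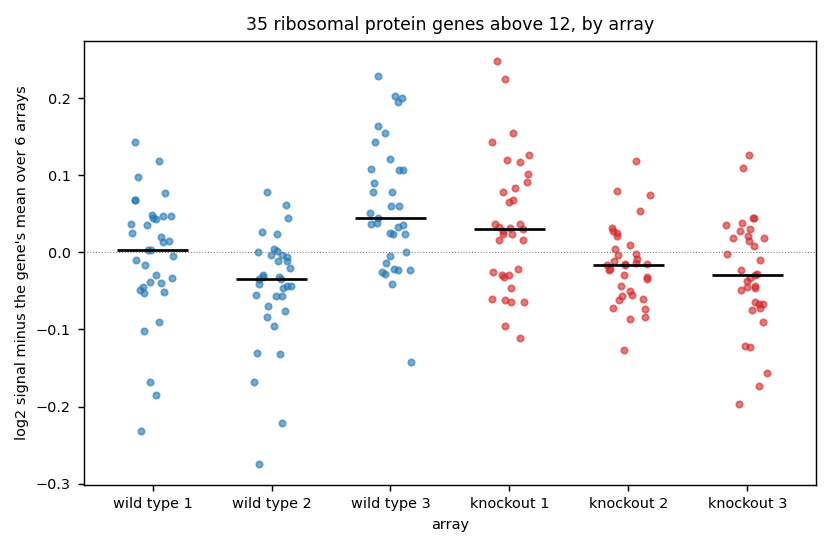
Deviation of each of the 35 genes above 12 from its mean over the 6 arrays, by array, with the median as a bar; blue is wild type and red is knockout. The medians lie between -0.03 and 0.04, and the groups share the same range.

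Genes around the ribosome showed a similar range or more. Fau, whose product is cut into a ubiquitin-like part and a small-subunit protein, differed by 0.06. Of the other mRNAs with a 5′ terminal oligopyrimidine tract, most of them translation factors, 15 of 16 were measured: 0 were called, 9 were higher and 6 lower, with a median of 0.01 and a median SD of 0.11. Eef2, the elongation factor that moves the ribosome along the mRNA, read 12.38, 12.37 and 12.28 in wild type and 11.94, 12.11 and 12.12 in knockout (difference -0.29, limma adjusted p = 0.629). Its groups did not overlap, nor did those of Eef1b2, which reloads elongation factor 1A (difference 0.13). These were 2 of the 15 genes (13.3%, against 13.8% of all genes).

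Regulators of ribosomal protein transcription and translation had 16 of 19 genes measured and 0 called, with 5 higher and 11 lower. Eif4ebp1, an mTOR-controlled inhibitor of cap-dependent translation, read 5.60, 5.63 and 4.64 in wild type and 6.36, 6.54 and 8.14 in knockout, all knockout values being higher (difference 1.72, limma adjusted p = 0.629). Mycn, a relative of Myc, read 13.33, 13.42 and 12.28 against 11.86, 12.03 and 12.60, with overlapping groups (difference -0.85, limma adjusted p = 0.634). Mtor read 7.52, 7.54 and 7.42 against 7.01, 7.18 and 7.18, again with no overlap (difference -0.37, limma adjusted p = 0.651). Tsc2, a brake on mTOR, read 4.47, 4.46 and 4.31 against 4.05, 4.22 and 3.92, without overlap (difference -0.35, limma adjusted p = 0.719). In this list 3 of 16 genes had groups that did not overlap (18.8%, against 13.8% of all genes). Myc, added after its value was seen, differed by 0.11. The median SD of this list was 0.25, close to that of all genes, while the ribosomal protein genes themselves stayed at 0.09.

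The mitochondrial ribosomal proteins, which build the separate ribosome that translates the mitochondrial genome, gave a related set at moderate signal. All 76 were tested and 0 were called by limma, 2 having an unadjusted p under 0.05. By sign 51 were higher and 24 lower in knockout, with a median difference of 0.09, and groups did not overlap in 13 of 76 (17.1%, against 13.8% of all genes). Signs of such small differences depend on the scaling of the arrays here too. The median deviation of the 76 genes from their own means was 0.00, -0.13 and 0.02 in wild type and 0.08, -0.06 and 0.09 in knockout. Their median SD was 0.19. Their means lay between 5.63 and 11.40, below the bright cytosolic genes, so the lists differ in level as well as in spread. The difference between the lists had no test.

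Genes often used as internal references had a median SD of 0.18, at a median level of 11.52 against 13.49 for the ribosomal protein genes; the difference in spread had no test. Of 10 measured, 0 were called and 8 were lower in knockout. Sdha, a subunit of a respiratory chain enzyme, read 9.65, 9.60 and 9.84 in wild type and 9.24, 9.39 and 9.39 in knockout, without overlap (difference -0.36, limma adjusted p = 0.634). Gapdh differed by -0.31 and Gusb by -0.47 (limma adjusted p = 0.634 for each). Rplp0, which is itself used as a reference in many laboratories, was the ribosomal protein gene with the smallest p.

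Many ribosomal protein probe sets list further symbols, mostly of pseudogenes, and are not in the counts above. There were 110 of these, with 43 ribosomal protein symbols, and 28 of the symbols, Rpl3, Rpl5, Rpl10 and Rplp1 among them, occur on no other probe set. In a fit over all probe sets of the file, 107 passed the filter and 0 were called by limma (0% of 27026), the lowest adjusted p being 0.612. Groups did not overlap in 15 (14.0%, against 13.6% of all probe sets). By sign 42 were higher and 64 lower, with a median of -0.02 and a median SD of 0.09, as in the single-symbol genes. The differences ran from -1.21 to 0.46.

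In bulk tumour RNA, fewer cells of a type and less RNA per cell cannot be told apart. Marker lists of other cells showed a mean log2 level of 3.56 to 3.80 in wild type and 3.38 to 4.59 in knockout for B lineage, 4.55 to 5.11 and 4.77 to 5.59 for monocytes and macrophages, and 6.24 to 6.85 and 6.70 to 7.26 for plasma cells. Above a level of 4 were 3 of 7, 4 of 7 and 4 of 6 of these markers. Of the 5 plasma cell markers tested, 3 lay above wild type in all knockout arrays, against 5.49% of all genes: Mzb1 differed by 2.28, Jchain by 1.68 and Xbp1 by 0.49 (limma adjusted p = 0.629 for each). The other 2 went the other way, Irf4 by -0.80 and Sdc1 by -0.13, with overlapping groups. Mzb1 read 5.04, 4.44 and 6.87 in wild type and 8.62, 7.64 and 6.93 in knockout. Jchain read 8.42, 8.72 and 10.68 against 11.34, 10.82 and 10.69. In both genes wild type replicate 3 lay just under knockout replicate 3, and wild type replicates 1 and 2, the close pair, lay lowest. Granulocyte markers lay at 6.95 to 7.48 and 6.98 to 7.51 (6 of 7 above 4), erythroid at 4.26 to 4.55 and 4.14 to 4.90 (2 of 5) and stromal at 2.86 to 3.44 and 2.42 to 3.13 (1 of 6). The part of these cells in the ribosomal protein values was not tested.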

How the data were processed

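The deposited values are log2 signals that the authors made with GCRMA, which the submitters' processing notes name; its version is not stated, and the base of 2 was read from the values' range. GCRMA corrects background by probe sequence, normalizes arrays together and summarises each probe set. Of 45101 probe sets, 34958 had 1 gene symbol, 932 several and 9211 none; 34754 of the single-symbol ones had a gene identifier in the RefSeq table (GRCm38.p6), used to update names. Each gene was represented by its probe set with the highest mean, and 12565 genes were tested, those whose mean lay over a percentile of 40 among all probe sets (2.04).

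Knockout minus wild type was fitted with limma 3.58.1 (R 4.3.3; lmFit, eBayes with trend), two-sided, p-values being adjusted by Benjamini-Hochberg across the genes tested. On simulated arrays with 12565 genes the fit recovered 39.4% of genes changed by 1 and 83.8% of those changed by 2 on the log2 scale, with a mean of 7.5 false calls over 20 simulations. The noise was drawn independently for each array, without a close pair like wild type replicates 1 and 2. Changes smaller than 1 were not simulated, so these shares do not apply to differences as small as those of most ribosomal protein genes.

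Members and gene lists were chosen with earlier results of these data known. Any member could be named. Array values were given for the 10 members with the smallest p per direction and the 6 with the largest and smallest SD. They were also given for the paralog, T cell leukemia and stalk lists, and for some members whose probe sets opposed each other. From other lists up to 4 genes with the smallest p were named, save where said. Alternatives covered the filter, prior variance, scaling, array weights, probe set choice, threshold and single arrays.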

Additional observations from a re-analysis of the deposited data

How the results depend on the processing

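No ribosomal protein gene was called by limma under any alternative run, including an adjusted p of 0.1. Over all genes, 0 were called in the design as reported, 2 with arrays centred on their medians, 1 with array weights, and 0 to 54 when single arrays were left out (54 without wild type replicate 3). In that last fit the wild type spread comes only from replicates 1 and 2, the close pair, and may be too small. The 3 arrays a group and the top of the scale limit what small differences can be seen. Of 320 values of the 20 ribosomal protein genes with the smallest p per direction, 306 kept their sign and none passed the threshold; adjusted p ranged from 0.308 to 0.997.

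Median centring gave 42 ribosomal protein genes higher and 3 lower, 5 with groups that did not overlap (all genes 13.2%), a median difference of 0.14 and a median SD of 0.14. Testing all probe sets gave 40 higher, 55 lower and 7 without overlap (all 13.8%). Groups without overlap numbered 6 with wild type replicates 1 and 2 averaged (all genes 20.6%) and 6 with the mean of a gene's probe sets (14.2%). With those replicates averaged, the differences of Rplp0, Rps9 and Rpl12 were -0.27, 0.27 and -0.74 (limma adjusted p = 0.939 for each). Leaving out single arrays gave 11 to 24 genes higher, 21 to 34 lower and 4 to 10 without overlap (all genes 18.4% to 28.3%).

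Signs reversed under median centring for Rpl6 (0.03), Rps19 (0.06), Rpl7l1 (0.01), Rps2 (0.07), Rpl19 (0.08), Rps4x (0.08) and Rps26 (0.08), which shifts all genes upward. With the mean of probe sets Rps9 (-0.12), Rpl22 (-0.08) and Rps4x (0.06) reversed. Without 1 array, Rpl14 (-0.07) and Rpl22l1 (-0.01) reversed without knockout replicate 3, Rps15 (-0.01) without wild type replicate 2 and Rps14 (-0.01) without knockout replicate 1; over all single arrays left out, the highest values of Rpl14, Rps15 and Rpl22l1 were 0.32, 0.13 and 0.09. The cause of the reversals by probe set or array was not tested.

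Replicate numbers showed no clear pairing of the samples: deviations of same-numbered arrays correlated at -0.0188, 0.0853 and -0.0353. Between arrays of different numbers the correlations ran from -0.119 to 0.0827. With 3 arrays a group these values cannot exclude a pairing. With the replicate number as a block, 0 genes and 0 ribosomal protein genes were called, 20 were higher and 25 lower, 3 had groups without overlap, and the median difference was -0.01.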
